A study of Mus musculus with 12 samples.

Results

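The genes of 6 NMDA receptor subunits were followed across 12 RNA-seq libraries of adult mouse cortex. They are Grin1, Grin2a, Grin2b, Grin2c, Grin2d and Grin3a, taken by symbol from the 21713 symbols that stand on 1 row of the deposited count table. Libraries were made from poly(A) RNA of whole cortex of 3 Tet1 genotypes, labelled KO, HxD and WT, with 4 libraries each. Tet1 encodes a dioxygenase that oxidises 5-methylcytosine in DNA. Enzymes of its kind hold iron at a motif that is called HxD. The series title contrasts catalytic with non-catalytic roles of TET1, and the labels give no more of how either allele was made, nor the strain, age in weeks or sex. Nothing in them ties a library to an animal of its own, and p-values below therefore measure the spread between these libraries, which may be technical.

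NMDA receptors are glutamate-gated channels that pass calcium when glutamate and a co-agonist are bound and the membrane is depolarised, and they drive synaptic plasticity in the cortex. A receptor joins GluN1, the obligatory subunit encoded by Grin1, with GluN2 subunits (Grin2a to Grin2d) that bind glutamate, or with GluN3 subunits (Grin3a, Grin3b) that bind glycine and lower calcium entry. In rodent forebrain GluN2B prevails early, GluN2A joins it as the cortex matures, GluN2D is found mainly in interneurons and GluN2C in astrocytes and cerebellar granule cells.

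Total estimated counts per library were 5791642 to 9535409 in KO, 7767787 to 10347432 in HxD and 8310783 to 10915574 in WT. Of the table, 11693 genes passed the filter on low counts (edgeR's filterByExpr, minimum count 10) and were tested. Tet1 itself was listed at 0 in all KO libraries, at 1, 0, 63 and 67 counts in HxD 1 to 4 and at 0 in all WT libraries, so it does not check the labels. Libraries of 1 genotype correlated at 0.869 to 0.909 and libraries of different genotypes at 0.834 to 0.901 (Pearson, log2 CPM across tested genes, which are not independent replicates). Markers of excitatory cortical neurons summed to 5083 to 6755 CPM in KO, 4500 to 7085 in HxD and 5073 to 7548 in WT, although Rorb and Foxp2 of that list did not pass the filter. Of the 8 tested markers 1 was above 0 in KO against WT (median log2 fold change -0.19), and that sum includes Nrgn at 3403 CPM in KO, 2724 in HxD and 2743 in WT. Some zeros in the count table may be failed estimates: among rows that reach 100 counts, 10.04% held both a 0 and at least 100 within a genotype. None of the 6 subunit genes did so, but Grin2a and Grin2c never reach 100 counts, so this check cannot cover them. A low value in this table need not mean low expression.

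The subunit genes lie apart in the genome, given here for GRCm38 in GENCODE M21, since the builds GRCm39 and mm10 are both named in the submitters' notes without role. Grin1 lies at chr2:25291181-25319187, Grin2a at chr16:9567898-9995560, Grin2b at chr6:135713233-136173511, Grin2c at chr11:115249169-115267243, Grin2d at chr7:45831883-45878378 and Grin3a at chr4:49661611-49845744, all on the minus strand. Their longest annotated transcripts differ widely, with 24060 bases for Grin2b, 14634 for Grin2a, 7491 for Grin3a, 5431 for Grin2d, 4895 for Grin2c and 4276 for Grin1. Grin1os, a noncoding gene on the plus strand, overlaps 7706 bases of the span of Grin1.

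Promoter windows are shown because TET1 binds CpG-rich DNA through its CXXC domain. RefSeq windows (GRCm38.p6, 250 bases before to 50 after the start, minus strand) were held for 3 of the 6 genes: Grin1 at chr2:25319138-25319437, Grin2d at chr7:45866632-45866931 and Grin2c at chr11:115267194-115267493. The start sites of the Grin1 and Grin2c windows are also GENCODE starts, whereas that of Grin2d lies 11697 bases inside the GENCODE span and 448 bases downstream of the nearest of its 3 GENCODE starts. CG dinucleotides, which read the same on both strands, are in capitals.
Grin1: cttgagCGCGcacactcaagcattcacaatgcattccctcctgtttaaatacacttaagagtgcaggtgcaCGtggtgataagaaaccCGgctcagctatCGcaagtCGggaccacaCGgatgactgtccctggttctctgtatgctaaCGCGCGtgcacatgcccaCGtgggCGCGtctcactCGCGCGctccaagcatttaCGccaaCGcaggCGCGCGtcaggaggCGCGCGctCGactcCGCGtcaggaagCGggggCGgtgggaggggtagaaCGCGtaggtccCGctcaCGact
Grin2d: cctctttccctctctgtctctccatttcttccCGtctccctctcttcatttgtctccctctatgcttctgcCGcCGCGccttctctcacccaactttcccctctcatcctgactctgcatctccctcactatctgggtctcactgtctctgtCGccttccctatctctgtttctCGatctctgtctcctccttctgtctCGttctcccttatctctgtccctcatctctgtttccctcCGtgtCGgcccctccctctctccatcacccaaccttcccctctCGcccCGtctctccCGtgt
Grin2c: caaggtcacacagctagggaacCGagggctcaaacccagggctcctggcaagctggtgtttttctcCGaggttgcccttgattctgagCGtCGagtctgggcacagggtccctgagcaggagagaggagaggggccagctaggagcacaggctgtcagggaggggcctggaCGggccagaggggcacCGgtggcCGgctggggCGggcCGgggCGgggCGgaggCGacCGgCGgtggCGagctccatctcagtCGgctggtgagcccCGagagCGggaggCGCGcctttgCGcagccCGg
The Grin1 window holds 33 CG, more than 91.7% of the 27025 genes with such a window. That of Grin2c holds 22 (more than 76.7%) and that of Grin2d 12 (more than 59.9%), where the median is 7 and 94.2% of windows hold at least 1. Methylation was not measured in these libraries, and the letters are given as a description.

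The 6 genes fell into levels that differed by orders of magnitude. Grin2b and Grin1 were abundant, with mean levels over the 12 libraries above those of 98.9% and 93.3% of tested genes. Grin3a and Grin2d stood in the middle of the table, above 68.2% and 55.1%. Grin2a and Grin2c did not pass the filter, so 4 of the 6 genes were tested. Summed over the 6 genes, the level was 827 ± 89.5 CPM in KO, 1178 ± 218 in HxD and 1325 ± 191 in WT (SD, n = 4 each), of which Grin2b made up 66.2%, 66.1% and 72.9%. Grin2a and Grin2c enter this sum as listed, and their values may be failed estimates.

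**Figure D1:**
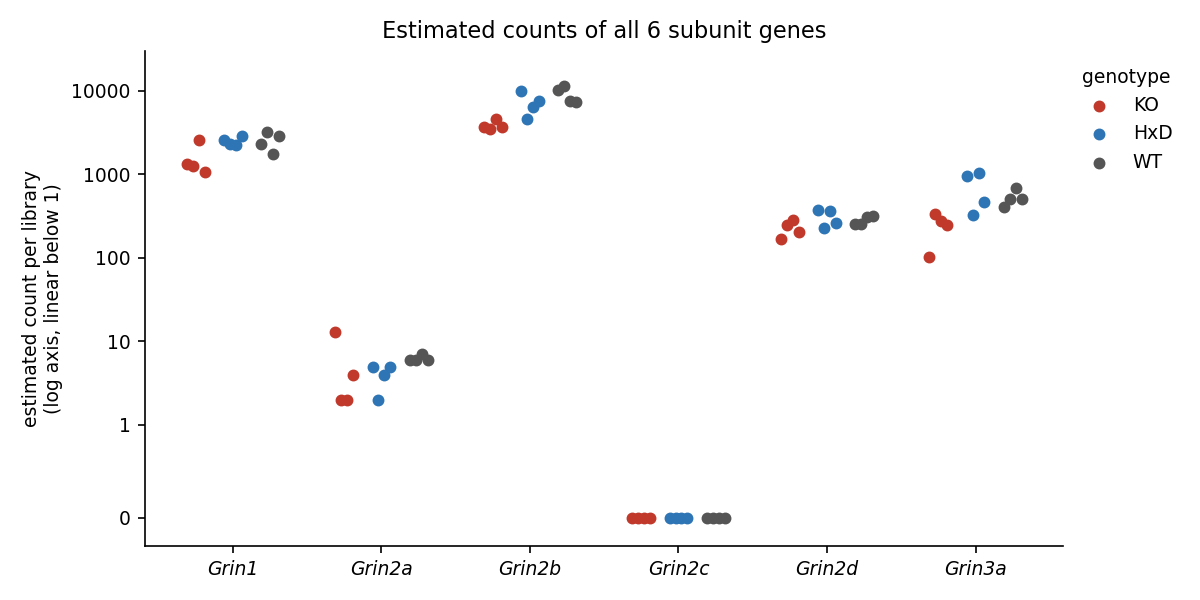
Estimated count of each subunit gene in each library on a log axis that is linear below 1, with 4 points per genotype (KO, HxD and WT from left to right). Grin2b sits between 3427 and 11483 counts, Grin2a between 2 and 13, and Grin2c at 0 throughout.

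Per kilobase of the longest transcript, the level of Grin1 was 49.7 ± 11.6 CPM in KO, 65.5 ± 3.67 in HxD and 62.1 ± 9.80 in WT (SD, n = 4 each, as for all means below). Grin2b followed with 22.8 ± 3.67 CPM per kb in KO, 32.7 ± 8.19 in HxD and 40.4 ± 8.0 in WT, below every Grin1 library of the same genotype. This order rests on the transcript taken, since over the 7484 bases of its next-longest transcript Grin2b would stand at 73.3 ± 11.8, 105 ± 26.3 and 129.8 ± 25.7 in KO, HxD and WT. Grin2d at 5.84 ± 0.53, 6.33 ± 1.56 and 5.64 ± 1.01 and Grin3a at 4.44 ± 1.66, 10.4 ± 5.36 and 7.59 ± 2.26, in the same order of genotypes, were neighbours whose ranges overlapped in every genotype. On this scale Grin2b made up 79.2% ± 3.01 of the listed GluN2 level in KO, 83.5% ± 3.28 in HxD and 87.3% ± 3.75 in WT, and Grin2d nearly all of the rest. Grin2a enters this share at 2 to 13 counts and Grin2c at 0, values that may be failed estimates. The share therefore describes the listed counts and is not read as receptor composition. It too rests on the transcript taken for Grin2b.

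Grin1 encodes the subunit without which no NMDA receptor forms. It stood at 226, 166, 276 and 181 CPM in KO 1 to 4, at 274, 301, 264 and 282 in HxD 1 to 4, and at 262, 307, 209 and 284 in WT 1 to 4. KO 3 lay among the HxD and WT libraries, while KO 2 and KO 4 lay below all of them, and the genotypes overlapped. Against WT, the log2 fold change was -0.32 ± 0.16 (SE) in KO and 0.08 ± 0.16 in HxD, with adjusted p = 0.584 and 0.999 (edgeR quasi-likelihood test, as for all adjusted p-values below). KO against HxD gave -0.40 ± 0.16 (adjusted p = 0.377). Whether the counting used strand is not given in the sources used here, so reads of Grin1 and Grin1os cannot be told apart. Grin1os held 7.04% to 12.9% of the Grin1 count in KO, 7.62% to 9.43% in HxD and 7.49% to 8.36% in WT.

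Grin2b encodes the GluN2 subunit with slow decay that binds CaMKII at the synapse. Its levels were 629.8, 458, 488 and 619 CPM in KO 1 to 4, 1062, 595, 742 and 743 in HxD 1 to 4, and 1153, 1093, 913 and 727 in WT 1 to 4. All 4 KO libraries lay below all 4 WT libraries, and the HxD libraries overlapped both. Excitatory neuron markers, given above, were lower in the median too in KO against WT, and their part in the Grin2b and Grin1 values was not tested. The mean was 549 ± 88.2 CPM in KO, 786 ± 197 in HxD and 971 ± 193 in WT. KO against WT gave a log2 fold change of -0.82 ± 0.20, a 1.77-fold lower level in KO (95% interval of the log2 value -1.28 to -0.37), with an unadjusted p = 0.0018 and an adjusted p = 0.19 in edgeR. It therefore missed the threshold of 0.05. In the same comparison 0.941% of tested genes had a smaller p. KO against HxD gave -0.52 ± 0.20 (adjusted p = 0.355) and HxD against WT -0.31 ± 0.20 (adjusted p = 0.999). These comparisons share libraries, so their values are set side by side only. The DESeq2 Wald test gave Grin2b an adjusted p of 0.00469 in KO against WT, while it called 288 genes there in place of 18, and the adjusted p was 0.108 to 0.459 over the other alternatives, the lowest of these without WT 4.

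**Figure D2:**
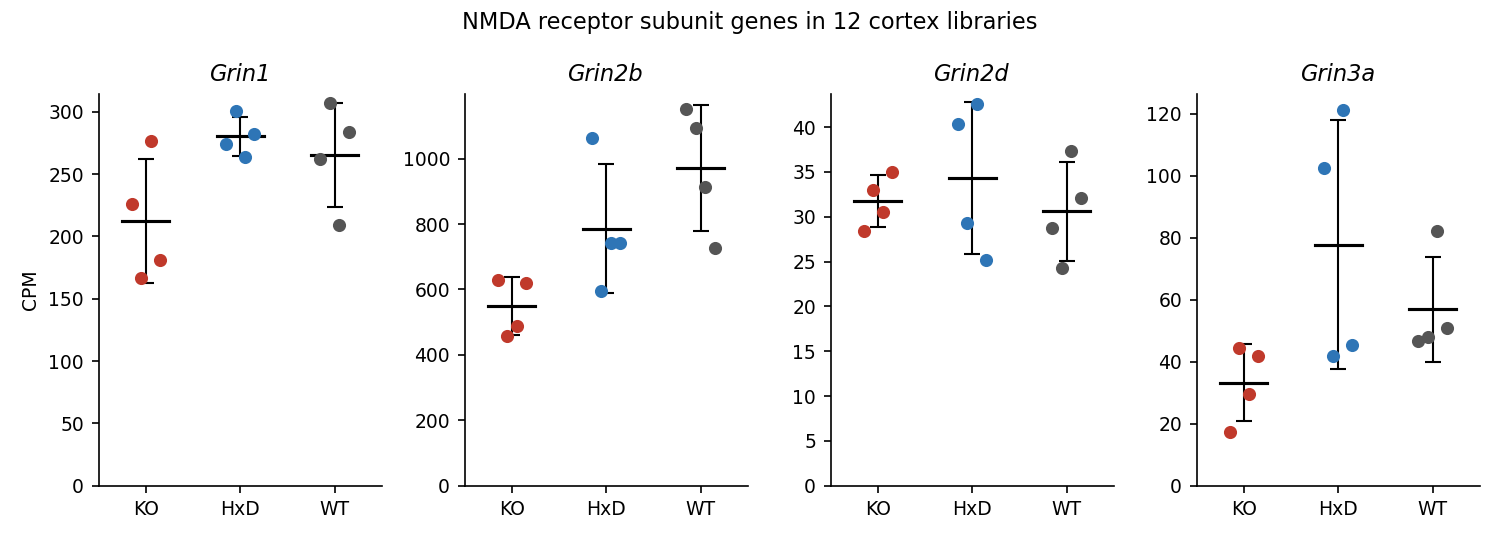
CPM of the 4 tested subunit genes, each panel with its own axis from 0, with 1 point per library, the mean as a line and the SD as a bar, for KO, HxD and WT from left to right. The 4 KO libraries of Grin2b sit between 458 and 629.8 CPM, below the lowest WT library at 727.

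Grin2d encodes a GluN2 subunit of interneurons with low magnesium block. It held 28.4, 33.0, 30.5 and 35.0 CPM in KO 1 to 4, 40.4, 29.2, 42.6 and 25.2 in HxD 1 to 4, and 28.7, 24.3, 37.3 and 32.1 in WT 1 to 4. The genotypes overlapped throughout and the whole range over the 12 libraries was 1.76-fold. Its log2 fold change was 0.05 ± 0.19 in KO against WT, 0.17 ± 0.19 in HxD against WT and -0.11 ± 0.19 in KO against HxD, with adjusted p = 0.962, 0.999 and 0.885 (edgeR). The 95% interval in KO against WT ran from -0.37 to 0.48. GABAergic interneuron markers summed to 1433 to 1548 CPM in KO, 1375 to 1757 in HxD and 1222 to 1518 in WT.

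Grin3a encodes a glycine-binding subunit that forms receptors with low calcium permeability. It was the most variable of the tested subunit genes, with a 7.01-fold range over the libraries. Levels were 17.3, 44.4, 29.7 and 41.7 CPM in KO 1 to 4, 102, 41.9, 121 and 45.4 in HxD 1 to 4, and 46.7, 47.8, 82.2 and 50.9 in WT 1 to 4. All 4 KO libraries lay below all 4 WT libraries, by a narrow margin between KO 2 and WT 1, while HxD split into a high pair and a low pair. KO against WT gave a log2 fold change of -0.77 ± 0.40 (adjusted p = 0.609), HxD against WT 0.45 ± 0.40 (adjusted p = 0.999) and KO against HxD -1.22 ± 0.41 (unadjusted p = 0.0124, adjusted p = 0.291, edgeR). The interval of the last ran from -2.14 to -0.30. The HxD against WT value was 0.15 without HxD 3 and 0.68 without WT 3.

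**Figure D3:**
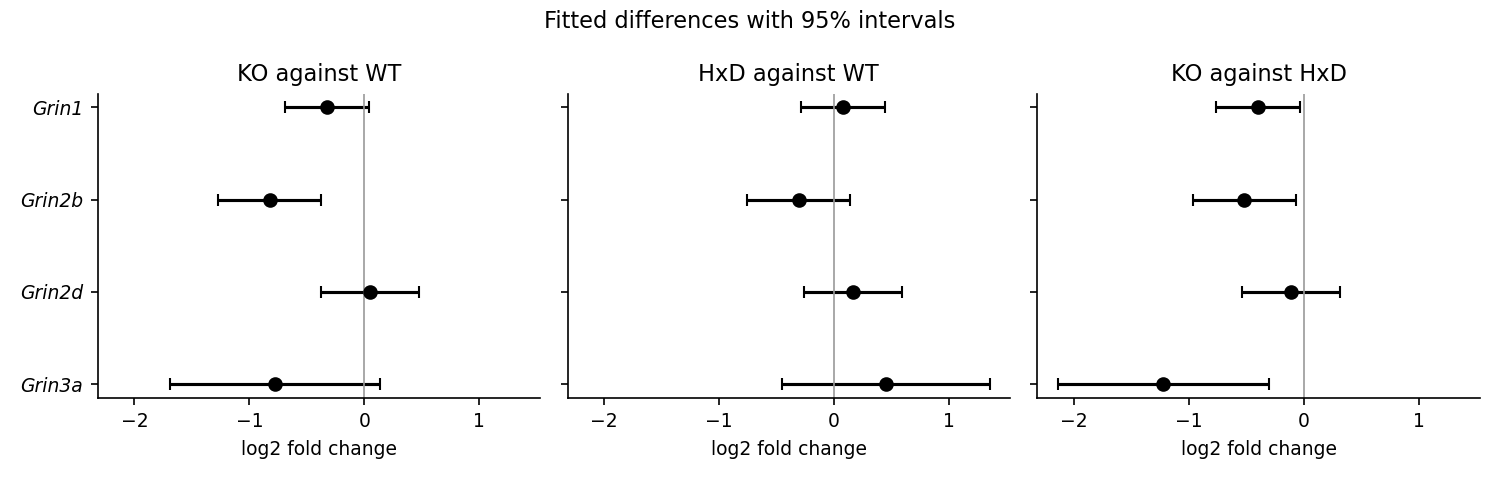
Log2 fold changes of the 4 tested subunit genes in the edgeR fit as points, with 95% intervals from the standard error and 9 residual degrees of freedom as bars, for KO against WT, HxD against WT and KO against HxD. The interval of Grin2b in KO against WT lies wholly below 0, from -1.28 to -0.37, and that of Grin2d spans 0 in each panel.

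Libraries HxD 3, HxD 1 and WT 3 held the 3 highest values of Grin3a (121, 102 and 82.2 CPM) and also of Grin2d (42.6, 40.4 and 37.3 CPM). The same 3 libraries had the highest summed level of hippocampal markers, with 361 CPM in HxD 3, 499 in HxD 1 and 318 in WT 3, against 106 to 295 in the other libraries. Over the genotypes this sum ranged over 106 to 204 CPM in KO, 138 to 499 in HxD and 115 to 318 in WT. Of the 8 markers 5 passed the filter, with 0 of 5 above 0 in KO against WT (median log2 fold change -0.17) and 4 of 5 in HxD against WT (median 0.66). Zbtb20 was listed at 0 in all libraries and Prox1 reached 2.76 CPM at most. Calb2 of this list is also a marker of interneurons, and Wfs1 of cortical neurons. Wfs1 made up most of the sum, averaging 101 CPM in KO, 174 in HxD and 180 in WT, beside mean sums of 136, 286 and 228. Fibcd1 ranged from 12.0 to 200 CPM over the libraries. The sum is therefore not read as hippocampal tissue content. Striatal markers, all 8 of which passed, summed to 292 to 436 CPM in KO, 257 to 1123 in HxD and 401 to 670.3 in WT. Of these markers 0 of 8 were above 0 in KO against WT (median log2 fold change -1.25) and 7 of 8 in HxD against WT (median 0.65), none of them called. HxD 3 was highest there too, at 1123 CPM, but HxD 2 was next at 696 CPM with Grin3a at 41.9. The part of neighbouring tissue in the Grin3a values was not tested, and in bulk tissue fewer cells of a type and less RNA per cell cannot be told apart.

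**Figure D4:**
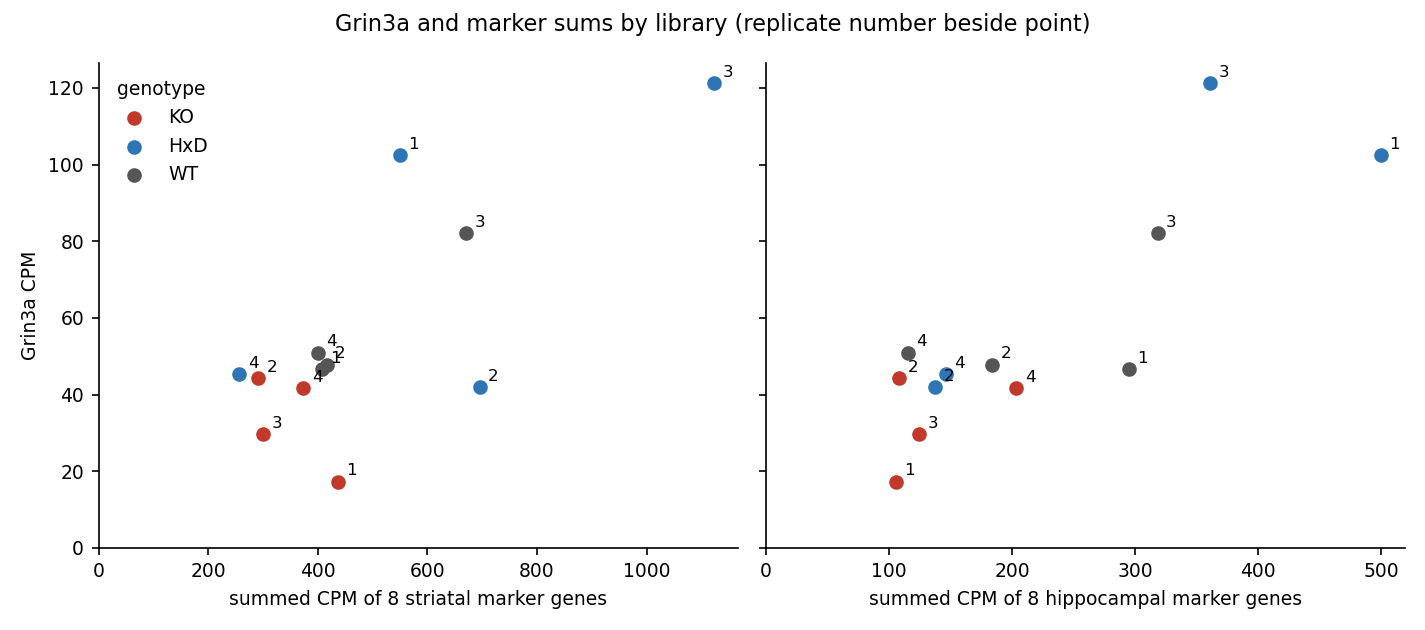
Grin3a level (CPM) against the summed CPM of 8 striatal markers (left) and 8 hippocampal markers (right), 1 point per library, coloured by genotype and numbered by replicate. HxD 3, HxD 1 and WT 3, with 121, 102 and 82.2 CPM of Grin3a, are also the libraries with the highest hippocampal sums.

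Grin2a encodes the GluN2 subunit that accompanies maturation of the cortex. It was listed with 13, 2, 2 and 4 estimated counts in KO 1 to 4, 5, 2, 4 and 5 in HxD 1 to 4, and 6, 6, 7 and 6 in WT 1 to 4. Exact Poisson 95% intervals, which cover counting error only, run from 0.242 to 7.22 for 2 counts and from 6.92 to 22.2 for 13. The HxD libraries, with at most 5 counts (interval 1.62 to 11.7), lay below the WT libraries with at least 6 (interval 2.2 to 13.1), a difference within counting error. With 0.5 added to each count, its row held at most 0.00367 counts per count of Grin2b in any library. Without the filter its log2 fold change in edgeR was 0.27 ± 0.71 in KO against WT and -0.61 ± 0.72 in HxD against WT (adjusted p = 0.975 and 1). The log2 ratio of Grin2a to Grin2b counts, with 0.5 added to each, was -9.75 ± 1.21 in KO, -10.64 ± 0.22 in HxD and -10.37 ± 0.39 in WT. No pair of genotypes differed beyond the spread, with p = 0.429 for KO against WT, 0.314 for HxD against WT and 0.171 for KO against HxD (exact permutation test over 70 splits, two-sided, smallest possible p 0.0286), each 0.429 when adjusted over the 3 comparisons. The numerator is at most 13 counts, so the ratio is not read here as a balance of GluN2A to GluN2B.

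Grin2c, the GluN2 subunit of astrocytes and cerebellar granule cells, was listed at 0 in all 12 libraries. Had these been true counts, a 0 would allow up to 0.286 to 0.514 CPM per library (3 counts). Astrocyte markers were plentiful all the same, with sums of 2394 to 2672 CPM in KO, 2050 to 2755 in HxD and 1950 to 2503 in WT. Cerebellar granule cell markers summed to 40.0 to 55.7 CPM in KO, 24.6 to 68.1 in HxD and 33.8 to 63.6 in WT, with Gabra6 and Barhl1 of the 8 listed at 0 in all libraries. Pax6 and Fat2 of that list reached 2.15 and 1.48 CPM at most. Cbln1 averaged 22.7 CPM in KO, 15.3 in HxD and 27.7 in WT. The sum is therefore not read as granule cell content. Grin3b, the other GluN3 gene, held 2 to 3 counts in KO, 0 to 5 in HxD and 0 to 8 in WT and was not tested.

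None of the 4 tested subunit genes passed an adjusted p of 0.05 in any comparison by edgeR. The share of all tested genes that did was 0.154% in KO against WT, 0.898% in HxD against WT and 1.02% in KO against HxD. At an unadjusted p below 0.05, Grin2b alone passed in KO against WT, where 9.48% of genes did, and none passed in HxD against WT, where 4.05% did. In KO against HxD, Grin1, Grin2b and Grin3a passed that level, each with a lower value in KO, where 5.94% of genes passed it with a lower value and 11.6% in either direction. In KO against WT, Grin2b and Grin3a had KO libraries wholly below the WT libraries, as had 3.95% of tested genes. No tested subunit gene had libraries of HxD apart from those of WT (3.48% of genes) or those of KO apart from HxD (7.59%).

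The trend of level with transcript length differed between libraries. The slope of centred log2 CPM on log2 transcript length was -0.0962 to -0.00666 in KO libraries, -0.111 to 0.0772 in HxD and -0.0022 to 0.0918 in WT. KO slopes lay below WT slopes by a narrow margin and HxD slopes overlapped both, and a difference by genotype was not tested. In KO against WT the median log2 fold change was 0.10 for 2370 genes with a longest transcript under 2 kb and -0.14 for 633 genes of 8 kb and over, where 68.2% of genes were below 0. Grin2b has the longest transcript of the subunit genes, and only 3 of all tested genes exceed its 24060 bases. With the trend removed in each library, Grin2b gave -0.54 ± 0.16 in KO against WT (adjusted p = 0.3), -0.36 ± 0.16 in KO against HxD (adjusted p = 0.402) and -0.18 ± 0.16 in HxD against WT (adjusted p = 1, edgeR). The trend at that length rests on few genes, with 10 tested genes of 20 kb or more. For Grin3a the same step gave -0.66 ± 0.41 and for Grin1 -0.29 ± 0.16 in KO against WT.

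**Figure D5:**
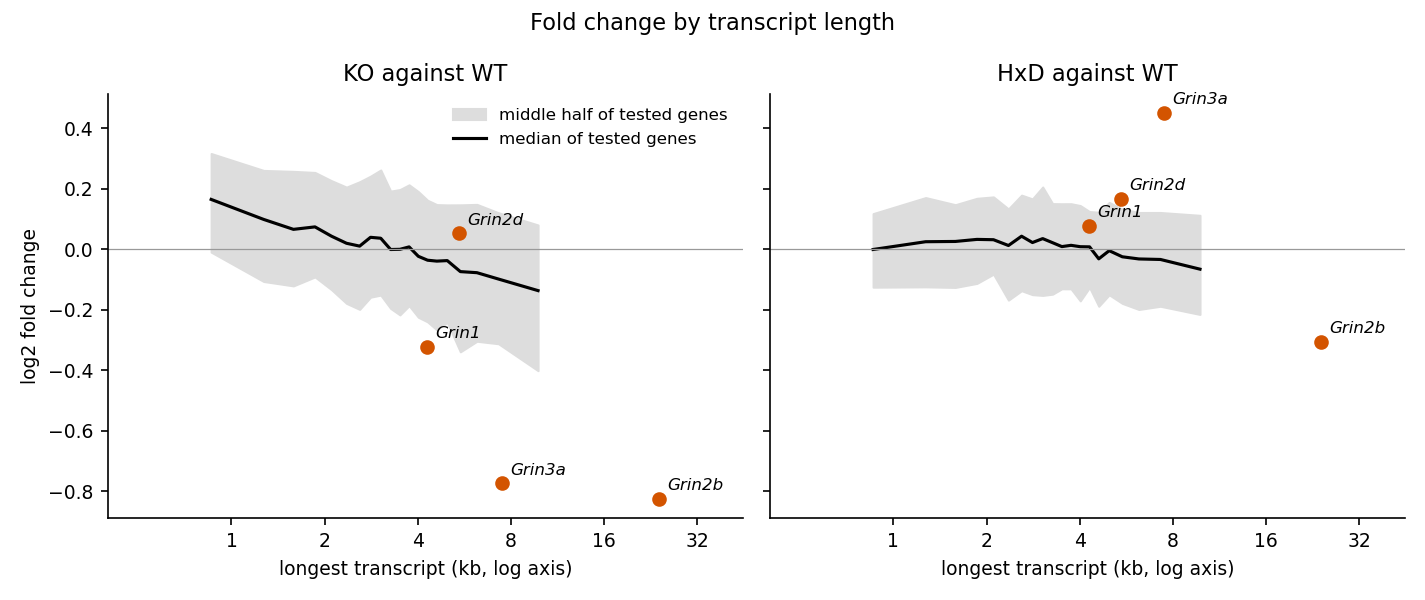
Log2 fold change against the longest transcript per gene (kb, log axis) for KO against WT (left) and HxD against WT (right). The line and band give the median and interquartile range of tested genes in 20 length classes, and the orange points are the subunit genes, with Grin2b at -0.82 on the left lying far to the right of the last class.

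The ratio of Grin2b to Grin1 within a library needs no scaling for depth between libraries. It does not remove the length trend above, since the longest transcripts have 24060 bases for Grin2b and 4276 for Grin1. The ratio, taken with 0.5 added to each count, was looked at after the values were seen, so no test is given. It was 2.78, 2.75, 1.77 and 3.42 counts of Grin2b per count of Grin1 in KO 1 to 4, 3.88, 1.98, 2.81 and 2.63 in HxD 1 to 4, and 4.40, 3.56, 4.36 and 2.56 in WT 1 to 4. The 3 genotypes overlapped on it, and WT 4, the WT library with the least Grin2b, lay within the range of KO. WT 4 also held the highest myelin marker sum among WT libraries, at 4797 CPM against 2002 to 2094 in the other 3. Myelin markers summed to 3279 to 3864 CPM in KO and 1423 to 4234 in HxD, and HxD 2, with 4234 CPM, was the HxD library with the least Grin2b. The parts of myelin content and of the length trend in these values were not tested.

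For each tested subunit gene, the 2 genes with the most similar profile were taken among 8108 other tested genes with a mean of at least 10 CPM, by Pearson correlation of log2 CPM over the 12 libraries. As the best of so many, they carry no p, and the points share library depth and the length trend above. Grin2b went with Celsr2 (r = 0.97, Spearman 0.96) and Nbea (r = 0.96, Spearman 0.95), whose longest transcripts are 10.6 and 11.0 kb. Celsr2, an atypical cadherin, stood at 314 CPM in KO, 419.9 in HxD and 449 in WT, and Nbea, a protein of vesicle trafficking, at 387, 467 and 490.3. Grin3a went with Zfp608 (r = 0.92) and Hes5 (r = 0.89), and Hes5, a target of Notch signalling, averaged 16.4 CPM in KO, 41.2 in HxD and 31.1 in WT. Grin1 went with Lig4 (r = 0.91) and Fam184a (r = 0.91), and Grin2d with Efnb3 and Fads2 (r = 0.91 each). Leaving out the 2 libraries farthest from the median of the subunit gene gave 0.98 and 0.95 for the partners of Grin2b, but 0.81 and 0.76 for those of Grin3a and 0.76 for Fam184a.

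Genes that surround the receptor were taken from 6 lists of 72 genes, of which 63 were tested. By edgeR 0 of 63 passed the adjusted threshold in each comparison. At an unadjusted p below 0.05, 7 passed in KO against WT, all lower (11.1%, where 5.26% of tested genes were lower at that level). In HxD against WT 1 passed, beside 4.05% of tested genes. In KO against HxD 13 passed, beside 11.6% of tested genes, with 11 lower (17.5%, where 5.94% of tested genes were lower) and 2 higher. In KO against WT 44 of the 63 genes (69.8%) were below 0, beside 49.1% of all tested genes. The median log2 fold change of the 63 genes was -0.17 in KO against WT, -0.05 in HxD against WT and -0.12 in KO against HxD, beside 0.01, 0.01 and 0.00 for all tested genes. Astrocyte marker sums averaged 2599 CPM in KO, 2381 in HxD and 2347 in WT and myelin marker sums 3530, 2406 and 2738, and their part in these medians was not tested. Slc1a3 belongs both to the lists and to the astrocyte sum, with means of 1121 CPM in KO, 1115 in HxD and 1079 in WT. The tested genes set beside the lists are of all lengths, and the part of the length trend above was not tested either.

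Among other ionotropic glutamate receptor genes (AMPA, kainate and delta subunits), 9 of 10 tested had a log2 fold change below 0 in KO against WT, with a median of -0.32 and 0 called. Grik3, a kainate receptor subunit, held 152 ± 11.9 CPM in KO, 182 ± 17.0 in HxD and 204 ± 37.5 in WT, with -0.43 ± 0.12 in KO against WT (adjusted p = 0.285). Grid1, a delta receptor that bridges synapses with cerebellins, held 95.7 ± 6.07, 119 ± 23.2 and 119.8 ± 6.15 in KO, HxD and WT (KO against WT adjusted p = 0.429). The KO libraries of both genes lay below the WT libraries, as for 3.95% of all tested genes, and both were named for the smallest p of their list in this comparison.

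Of 13 kinases and phosphatases that act on the receptor, 3 had an unadjusted p below 0.05 in KO against WT, all lower, beside 5.26% of all tested genes with a lower value at that level, and 0 passed after adjustment. Ptpn5 encodes STEP, a phosphatase that dephosphorylates GluN2B. It held 68.5 ± 5.44 CPM in KO, 134 ± 45.8 in HxD and 109 ± 19.6 in WT. Its adjusted p was 0.346 in KO against WT and 0.0806 in KO against HxD, the lowest among the 63 genes in that comparison. Ptpn5 is also abundant in striatum, whose marker sums are given above. Camk2a, which encodes the main kinase of the postsynaptic density, could not be read, with 41 to 1096 estimated counts per library and a median of 80. It was singled out after its values were seen.

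Scaffolds that anchor the receptor gave 8 of 11 tested below 0 in KO against WT, with a median of -0.16. Dlg3, which encodes SAP102, stood at 190.1 ± 59.5 CPM in KO, 234 ± 57.9 in HxD and 242 ± 13.9 in WT (adjusted p = 0.698 for KO against WT). Homer1 held 0 to 62 estimated counts per library in KO, 25 to 45 in HxD and 0 to 51 in WT. Dlg4, which encodes PSD-95 and did not pass the filter, was listed at 0 in 10 libraries with 792 counts in KO 2 and 884 in WT 2. It too was singled out after its values were seen.

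Effectors of calcium entry gave 4 of 6 tested below 0 in KO against WT (median -0.14), and Rasgrf2, a Ras exchange factor, held 208 ± 13.5 CPM in KO, 201 ± 43.3 in HxD and 244 ± 59.2 in WT. Trafficking partners gave 8 of 12 below 0 (median -0.12). Ephb2, a receptor tyrosine kinase that binds NMDA receptors, was listed with 0 to 4 counts in KO, 3 to 240 in HxD and 0 to 155 in WT (KO against WT adjusted p = 0.468). Snx27, an endosomal sorting protein, held 189 ± 11.0 CPM in KO, 205 ± 22.9 in HxD and 214 ± 10.7 in WT (adjusted p = 0.544).

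Genes of glutamate and co-agonist supply gave 7 of 11 below 0 in KO against WT (median -0.17), and 0 passed. Slc17a7, the vesicular glutamate transporter of cortical excitatory neurons, stood at 2108 ± 196 CPM in KO, 2554 ± 351 in HxD and 2679 ± 450.1 in WT, with -0.35 ± 0.14 in KO against WT (adjusted p = 0.453). Slc17a6, a form found in thalamus among other regions, stood at 87.5 ± 24.5, 59.6 ± 42.9 and 42.9 ± 23.2 CPM in KO, HxD and WT (adjusted p = 0.58). Thalamic markers, a list that holds Slc17a6, summed to 315 to 358 CPM in KO, 226 to 351 in HxD and 232 to 354 in WT. Of the 6 tested markers of that list only 2 were above 0 in KO against WT (median log2 fold change -0.28). Part of the sum is Slc17a6 itself, so it is no separate measure beside that gene. Slc17a7 is likewise part of the excitatory neuron marker sum given above.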

How the data were processed

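The deposited values are estimated counts, with genes in rows by symbol and the 12 libraries in columns, and their column totals differ, as unnormalized counts do. The submitters' processing notes name STAR 2.7.1a, StringTie 2.2.3, SAMtools 1.9, along with Trim Galore 0.6.7 and FastQC, with no order or settings. How reads were assigned to genes is not given in the sources used here. Values are whole, so rounding changed nothing. They were read as estimated counts because common genes such as Gapdh are listed at 0.

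The 56 rows of 25 symbols that stand on several rows were left out. CPM were computed with the summed counts of the tested genes times the TMM factor as library size, also for genes that were not tested. The edgeR 4.0.16 quasi-likelihood test (R 4.3.3, robust) was fitted once over all 12 libraries with genotype as the only term, two-sided, with Benjamini-Hochberg adjustment over 11693 genes. Intervals of log2 fold changes use the standard error and 9 residual degrees of freedom. Transcript lengths are those of the longest GENCODE M21 transcript, found for 21673 symbols. Alternatives used DESeq2 1.42.0, limma 3.58.1, sva 3.50.0, other scalings and filters, offsets for transcript length and each library left out. The scripts were tested on simulated data. The members and lists were chosen with earlier results of these data known. All subunit genes are named, with the 2 most similar genes each, and from each list the called genes or else the 2 with the smallest p in KO against WT, of which some are not reported here.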

Additional observations from a re-analysis of the deposited data

Results flagged for a closer look

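Grin3a in WT 3 stood apart from the other WT libraries, at 82.2 CPM against 46.7 to 50.9 CPM. Of 18 sets of 4 libraries examined (a subunit gene or the Grin2a to Grin2b ratio within a genotype), this was the only 1 whose extreme library stood this far off, where chance gives about 1 in 20.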

How the results depend on the processing

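Over 21 alternatives per fold change, Grin2b kept its direction in all 3 comparisons, with log2 fold changes of -0.95 to -0.53 in KO against WT. The DESeq2 Wald test was the only alternative to call a subunit gene, with 1 called (Grin2b in KO against WT, -0.84). Small values changed sign with 1 library left out, none of them called: Grin2d in KO against WT ran from -0.0587 (without WT 2) to 0.161 and was -0.01 without KO 4, Grin2d in KO against HxD from -0.246 to 0.00311 (without HxD 3), and Grin1 in HxD against WT from -0.0219 (without WT 3) to 0.151. With 1 library left out, Grin3a in HxD against WT ran from 0.15 (without HxD 3) to 0.68 (without WT 3), Grin2b in HxD against WT from -0.49 (without HxD 1) to -0.19 (without HxD 2) and Grin2b in KO against HxD from -0.63 to -0.34 (without HxD 1). The log2 ratio of Grin2a to Grin2b in HxD against WT was 0.0476 with 5 counts added, in place of -0.27. In KO against HxD it reached 0.93 with 5 counts added (exact permutation p = 0.0286, the smallest possible). Grin2a holds at most 13 counts, so with 5 added the ratio largely follows the Grin2b count, which also carries library depth. Grin2b counts were 3427 to 4567 in KO and 4580 to 9868 in HxD. Leaving out 1 library, with 0.5 counts added, the ratio in KO against HxD ran from 0.33 to 1.25. Without KO 3 the exact permutation p was 0.0286, the smallest that this test can give. It was 0.457 without KO 1, the library with 13 counts. These p-values, and that with 5 counts added, were not adjusted over the 3 comparisons. Over all genes, 18 were called in KO against WT, 33 at a threshold of 0.1, 288 by the DESeq2 Wald test, 0 by limma-voom (1145 at an unadjusted p below 0.05), 0 with the 8 libraries alone (1171), and 12 to 35 with 1 library left out, the highest without WT 4. The DESeq2 Wald test called 172 in place of 105 in HxD against WT and 397 in place of 119 in KO against HxD. The cause of these differences was not tested.

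Replicate numbers are shared by the genotypes, but same-numbered libraries deviated together little (correlations -0.07 to 0.08 over 12 pairs), so they were not treated as pairs. With the replicate block 5 genes were called in KO against WT, 74 in HxD against WT and 95 in KO against HxD, with Grin2b at -0.83 (adjusted p = 0.27) in the first, and 4 there with the length trend removed too. Each library's own number was its best match in 8 of 24 checks, each a choice among 4 numbers. Grin2a and Grin2c, with counts near or at 0, cannot be compared at these values, and whether depth or the estimate sets them was not tested.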
